A study of Homo sapiens with 15 samples.

Results

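The genes described here carry names used for the subunits of the mitochondrial respiratory chain and ATP synthase that the nucleus makes. They were chosen by name, as single-gene names that begin with NDUFA, NDUFB, NDUFC, NDUFS or NDUFV and a number (complex I), SDHA to SDHD (complex II), UQCR (complex III), COX4 to COX8 (complex IV) or ATP5 (complex V). This gave 85 of the 19531 gene names in the files, with 37 in complex I, 4 in complex II, 9 in complex III, 17 in complex IV and 18 in complex V. The names matching the pattern numbered 87, and the other 2, which join ATP5J2 with PTCD1, were left out. No measured value entered the choice, but the genes were proposed with earlier results of these data known. The files use older symbols for 18 members, such as ATP5G1, ATP5G2 and ATP5G3, which RefSeq now lists as ATP5MC1, ATP5MC2 and ATP5MC3. NDUFA4 was counted under complex I by its name, although its protein is now regarded as a complex IV subunit, and ATP5EP2 is a pseudogene. ATP5S, which RefSeq now lists as DMAC2L, and COX7A2L were likewise counted under complexes V and IV by name, so counts of members are not strictly counts of subunits.

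The libraries were made from U2OS, an established human osteosarcoma line, by SLAM-seq. Unsynchronised cells took up 4-thiouridine, a uridine analogue that enters new RNA, together with EdU, a thymidine analogue that enters replicating DNA, for 45 minutes. They were fixed with glyoxal and methanol and sorted by EdU and DNA content into the groups G1, Early_S, Late_S and G2, the last also written G2/M, with 3 libraries each. The title of the series speaks of synchronised cells, whereas the protocol describes this sort. All of these cells carried 4-thiouridine and EdU, and alkylation of the RNA then turned incorporated 4-thiouridine into apparent T>C changes in the reads. The No_alkylation group, with 3 libraries, is named for the missing chemical step, and the labels do not say which sorted or unsorted cells it holds. Gates were drawn on EdU and DNA content, so each is a range of cells and not a single time point. Nothing in the labels says that the 3 libraries of a group came from separate cultures, so p-values measure the spread between these libraries, which may be technical.

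The respiratory chain passes electrons from NADH, through complex I, and from succinate, through complex II, to ubiquinone, then through complex III and cytochrome c to complex IV, which reduces oxygen. Complexes I, III and IV move protons out of the mitochondrial matrix, and complex V lets them back to make ATP. Complexes I, III, IV and V also hold subunits made from mitochondrial DNA, which are not analysed here, so nuclear and mitochondrial products have to be put together. Transcription factors known to bind many of the nuclear genes include NRF1, GABP of the ETS family, YY1 and SP1.

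Between 16096695 and 21803972 reads per library fell in the counted transcript end regions, of which 10.9% to 12.1% were multimapped. T>C reads, those listed with T>C conversions, were 22.3% ± 0.740 of reads for G1, 18.4% ± 0.516 for Early_S, 10.0% ± 0.0870 for Late_S, 10.1% ± 0.336 for G2 and 1.01% ± 0.0179 for No_alkylation (SD, n = 3 each). Of 8 phase marker genes, all 8 differed across the 4 phases in all reads, and the means of CCNB1, a cyclin of mitosis, were 132, 221, 262 and 348 CPM for G1, Early_S, Late_S and G2. Genes of the osteoblast lineage, from which osteosarcoma arises, were detected for 6 of 7 measured names in G1, with IBSP at 0. In Early_S, Late_S and G2 the count was 5 of 7, with COL1A2 also at 0. Epithelial markers were detected for 6 of 6 names in G1 and 5 of 6 in those phases, with KRT19 at 0. Blood cell markers summed to at most 4.68 CPM in a library. Osteoblast lineage markers summed to 2907 to 3070 CPM in Early_S libraries against 2490 to 2644 CPM in G1 libraries, and epithelial markers to 1390 to 1685 CPM against 1690 to 1970 CPM. Their part in the results on members was not tested. CPM here is the usual depth-scaled read count, with library sizes multiplied by edgeR's TMM factors, and since the kit reads 1 end of each transcript it is not divided by length.

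Together the members held 2.12% ± 0.0255 of all reads in Early_S, more than in any other group (SD, n = 3). The other means were 1.94% ± 0.00497 for G1, 1.89% ± 0.0293 for Late_S, 1.85% ± 0.0443 for G2 and 1.69% ± 0.0186 for No_alkylation. Each Early_S library, at 2.09%, 2.14% and 2.12%, lay above each library of the other groups. In reads summed over members complex V made the largest step, with 0.695%, 0.687% and 0.698% of reads in Early_S, against 0.605%, 0.610% and 0.608% in G1. Much of this step lay in ATP5G1, ATP5G2 and ATP5G3, with means of 697, 1167 and 968 CPM in Early_S against 432, 724 and 817 CPM in G1. Of the 18 complex V members, 11 had a positive and 7 a negative log2 change in that comparison. Complex I held 0.663% ± 0.0119 in Early_S against 0.620% ± 0.00549 in G1, and complex IV 0.435% ± 0.00955 against 0.400% ± 0.00602. The median log2 change over members in Early_S against G1 gave another order, with 0.07 for complex V, below the 0.15 of complex I, 0.17 of II and 0.20 of IV. Complexes II and III had Early_S libraries that overlapped those of G1. Among T>C reads, which come mainly from RNA made in the pulse, the members held 1.08% ± 0.0228 for G1, 1.06% ± 0.0306 for Early_S, 1.05% ± 0.0146 for Late_S and 1.10% ± 0.0212 for G2. The members thus took a smaller part of T>C reads than of all reads in every phase, with no step in Early_S.

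**Figure D1:**
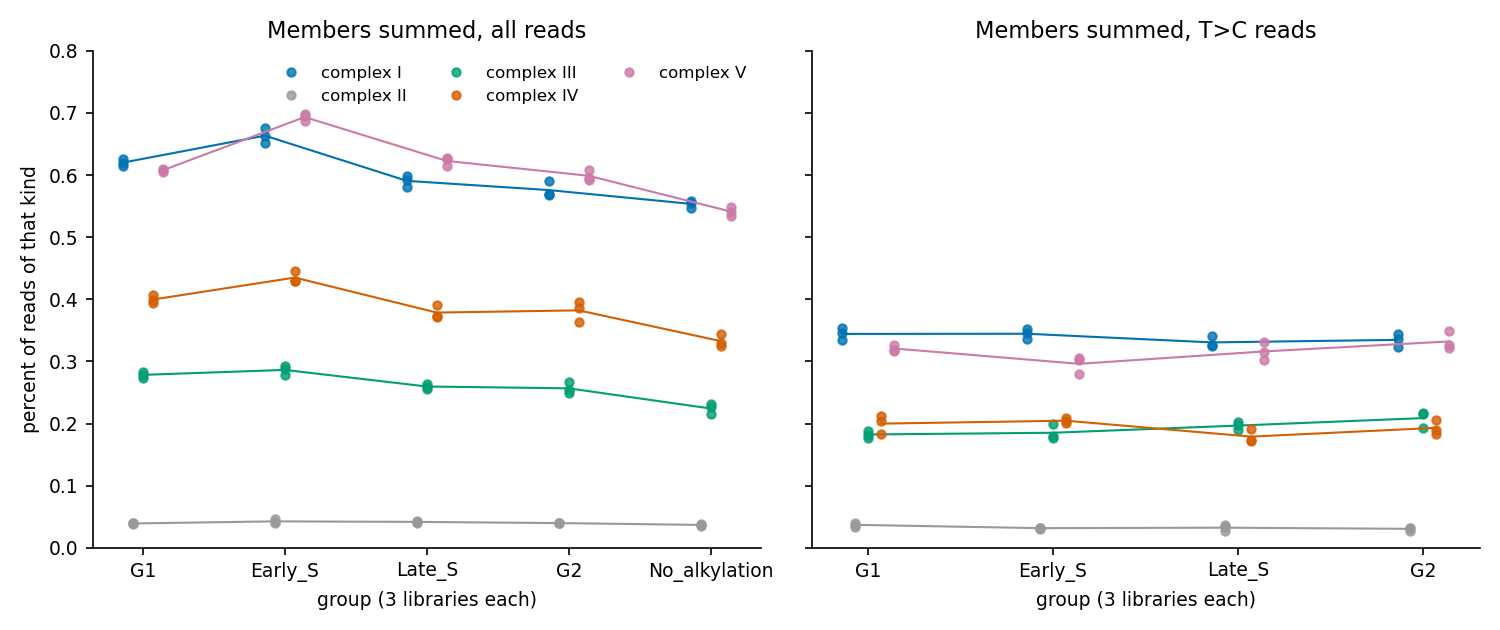
Summed reads of the members of each complex as a percent of all reads (left, 5 groups) and of T>C reads (right, 4 phases), with 1 point per library and lines through the means of 3 libraries. In all reads complex V stands at 0.693% in Early_S against 0.608% in G1, a step that lay largely in ATP5G1, ATP5G2 and ATP5G3. In T>C reads its mean is 0.296% in Early_S against 0.321% in G1.

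The filter on low counts left 79 of the 85 members to test, and the other 6 were all isoforms of complex IV. In all reads, 43 of the 79 members (54.4%) differed across the 4 phases at an adjusted p under 0.05, beside 34.1% of the 13755 genes tested. The changes were small: the mean of the highest phase over that of the lowest had a median of 1.23 over the members and 1.59 over all genes tested, and 5 members passed 1.5-fold and 0 passed 2-fold. The members were also more abundant, at a median of 170 CPM against 18.5 CPM for all genes tested. Of the 43 that differed, G1 held the highest mean for 9, Early_S for 33, Late_S for 0 and G2 for 1. Of the 4693 genes that differed, G1 was highest for 34.9%, Early_S for 28.4%, Late_S for 12.1% and G2 for 24.6%. Of all genes tested, 11.9% differed with G1 highest, 9.71% with Early_S, 4.12% with Late_S and 8.4% with G2. The lowest phase was G1 for 10 of the 43, Early_S for 0, Late_S for 9 and G2 for 24. Among the 4693 genes that differed, these phases were lowest for 35.1%, 31.2%, 11.7% and 22.0%.

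In Early_S against G1, 20 of 79 members rose and 1 fell, beside 12.5% and 11.8% of all genes, with a median log2 change of 0.14 for the members and -0.00 for all genes tested. In Late_S against Early_S, 19 fell and 0 rose, beside 4.25% and 6.99% of all genes, with medians of -0.19 and -0.04. In G2 against Late_S, 0 members were called by edgeR's quasi-likelihood test, beside 0.145% of all genes, and DESeq2 called 0. An unadjusted p under 0.05 in edgeR's test was reached by 13 of 79 members, beside 1315 of 13755 genes. In G1 against G2, 16 were higher in G1 and 4 lower, beside 10% and 11.1% of all genes, with medians of 0.11 and 0.01. These 4 comparisons share libraries and are not independent of each other. The count in Early_S against G1 dropped to 12 without the G1 replicate 2. The count in Late_S against Early_S dropped to 11 without the Late_S replicate 1 and to 5 without the Late_S replicate 3.

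**Figure D2:**
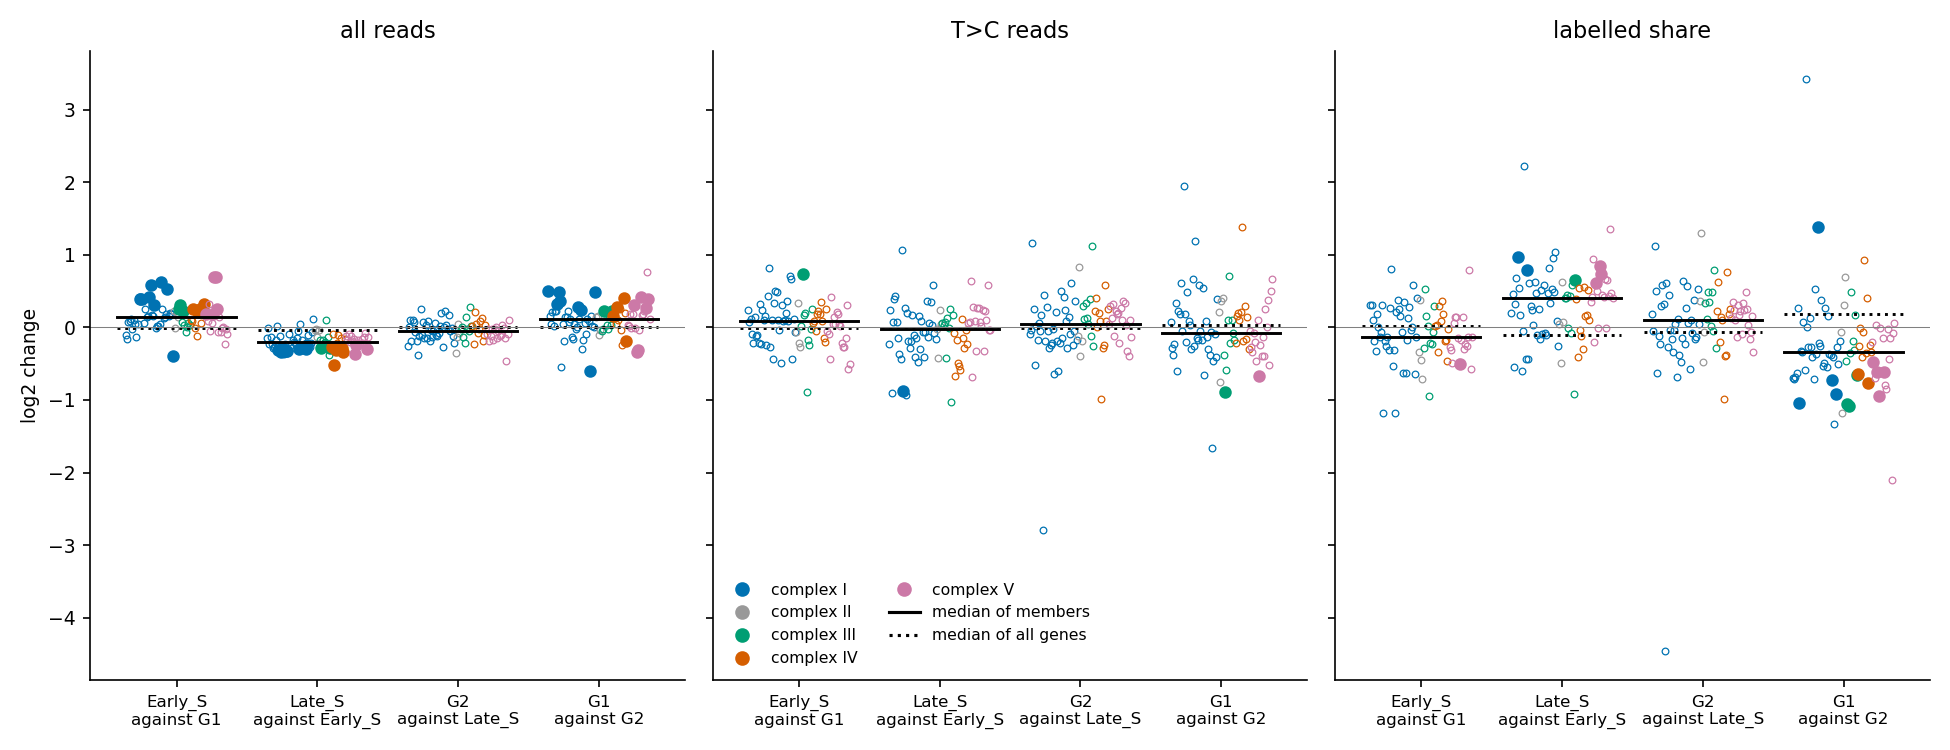
Log2 change of each tested member (points, coloured by complex and ordered by complex and name) in 4 comparisons of phases, for all reads, T>C reads and the labelled share with overall labelling removed. Filled points passed an adjusted p of 0.05, solid lines are medians of members and dotted lines medians of all genes; in all reads the members' median lies at 0.14 in Early_S against G1 and at -0.19 in Late_S against Early_S.

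The promoters shown are those of the 4 members with the largest called rise in Early_S against G1 among members with an entry in the RefSeq promoter table (GRCh38.p14). Not every member with a large rise had an entry: NDUFB5, which rose more than NDUFS7 and NDUFB4, had none. Each runs from 250 bases before to 50 bases after the transcript start, on the gene's strand. Capitals mark the letters of 5 motifs searched on both strands: GCGC, any base and TGCGC in a row for NRF1, CCGGAAG for GABP and other ETS factors, AANATGGCG for YY1, GGGCGG for SP1 and CCAAT for the CCAAT box. No motif contains another, but neighbouring matches can share bases.
ATP5G1, chr17:48892537-48892836, plus strand: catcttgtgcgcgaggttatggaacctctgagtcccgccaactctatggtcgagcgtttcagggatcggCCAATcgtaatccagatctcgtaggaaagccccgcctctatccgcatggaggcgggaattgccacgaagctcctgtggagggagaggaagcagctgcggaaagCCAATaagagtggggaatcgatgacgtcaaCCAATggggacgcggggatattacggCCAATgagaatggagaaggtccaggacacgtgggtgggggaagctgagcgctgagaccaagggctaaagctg
ATP5G2, chr12:53676034-53676333, minus strand: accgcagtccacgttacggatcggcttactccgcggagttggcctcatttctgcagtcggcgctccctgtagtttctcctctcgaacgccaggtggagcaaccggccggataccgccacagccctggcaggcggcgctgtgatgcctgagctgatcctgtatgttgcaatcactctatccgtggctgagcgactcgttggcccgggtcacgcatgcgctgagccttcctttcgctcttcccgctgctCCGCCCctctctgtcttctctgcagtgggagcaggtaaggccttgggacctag
NDUFS7, chr19:1383657-1383956, plus strand: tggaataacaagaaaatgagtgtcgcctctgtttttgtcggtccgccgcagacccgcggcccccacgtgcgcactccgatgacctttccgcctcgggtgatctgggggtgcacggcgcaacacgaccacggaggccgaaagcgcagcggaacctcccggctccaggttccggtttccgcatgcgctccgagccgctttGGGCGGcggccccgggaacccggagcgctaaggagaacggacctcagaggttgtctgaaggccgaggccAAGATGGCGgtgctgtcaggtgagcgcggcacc
NDUFB4, chr3:120596086-120596385, plus strand: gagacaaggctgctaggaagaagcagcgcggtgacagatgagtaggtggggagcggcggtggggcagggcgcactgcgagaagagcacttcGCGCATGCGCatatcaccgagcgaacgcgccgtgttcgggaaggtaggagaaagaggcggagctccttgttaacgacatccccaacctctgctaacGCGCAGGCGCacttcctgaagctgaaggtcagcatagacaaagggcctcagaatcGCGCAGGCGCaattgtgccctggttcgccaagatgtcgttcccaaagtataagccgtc
The ATP5G1 promoter holds 4 CCAAT letters and none of the other motifs, and that of ATP5G2 holds 1 SP1 motif. The NDUFS7 promoter holds 1 SP1 motif and 1 YY1 motif, and that of NDUFB4 holds 3 NRF1 motifs. None of the 5 motifs stood in all 4 windows.

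Over the 62 tested members with a promoter in the table, the NRF1 letters stood in 15 (24.2%), beside 11.2% of the promoters of all genes tested and 6.28% of all 27305 promoters in the table. The YY1 letters stood in 16 (25.8%), beside 6.67% and 3.37%, and the ETS letters in 19 (30.6%), beside 18.4% and 10.7%. The SP1 letters stood in 38 (61.3%), beside 69.5% and 44.6%, and CCAAT in 20 (32.3%), beside 35.9% and 35.7%. By complex, the NRF1 letters stood in 6 of 31 promoters of complex I, 2 of 3 of complex II, 4 of 7 of complex III, 0 of 10 of complex IV and 3 of 11 of complex V. The YY1 letters stood in 10 of 31 promoters of complex I and in 1 of 10 of complex IV. These are counts of letters, not of bound sites.

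**Figure D3:**
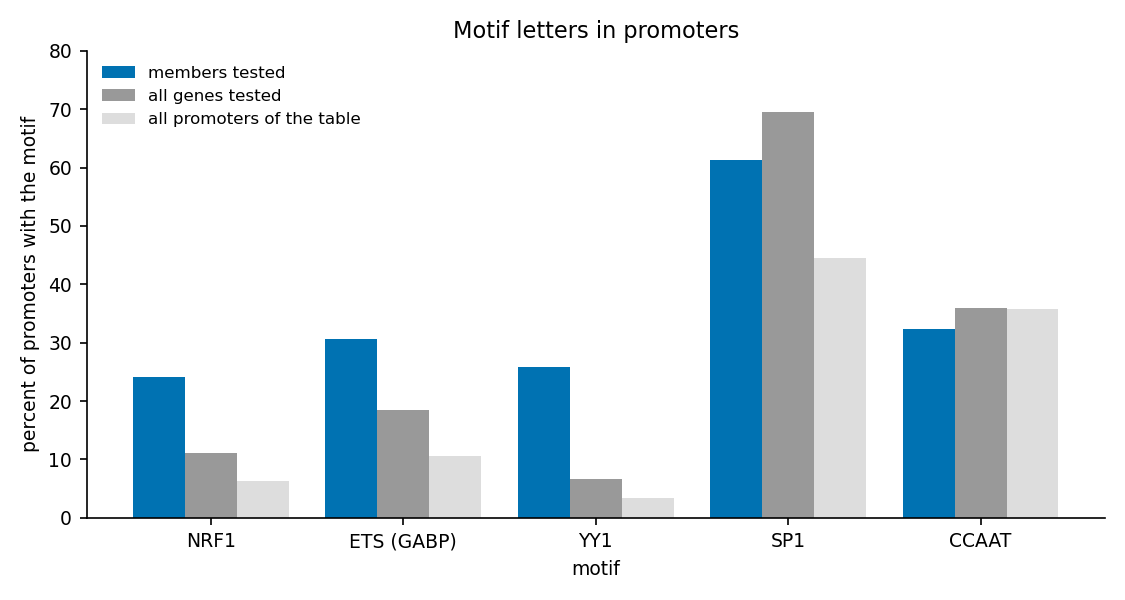
Percent of promoters that hold each of 5 motifs, for the tested members (62 promoters), all genes tested (10362) and all promoters of the RefSeq table (27305). The bars for NRF1 and YY1 stand at 24.2% and 25.8% in members, against 11.2% and 6.67% in all genes tested.

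The largest called rises in Early_S against G1 were in complex V, in genes of its c-ring. ATP5G1, ATP5G2 and ATP5G3 encode the same mature subunit c, the proton-carrying ring of ATP synthase, with different import sequences. Their counted ends lie at chr17:48895770-48895871, chr12:53665166-53665313 and chr2:175176258-175178287 (hg38). ATP5G1 had 708.7, 734.8 and 646.1 CPM in Early_S, against 418.5, 456.0 and 421.0 CPM in G1. ATP5G2 had 1184, 1168 and 1148 CPM in Early_S, against 750.3, 702.1 and 720.9 CPM in G1. For both genes every Early_S library lay above every G1 library.

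On the log2 scale ATP5G2 rose by 0.70 ± 0.06 (SE; edgeR quasi-likelihood, adjusted p = 9.8e-13) and ATP5G1 by 0.70 ± 0.07 (adjusted p = 3.15e-10). ATP5G3, which changed least of the 3, averaged 968 ± 51.9 CPM in Early_S and 817 ± 60.7 CPM in G1 and rose by 0.26 ± 0.06 (adjusted p = 0.00171, same test). In Late_S the means were 546 ± 24.7 CPM for ATP5G1 and 1000 ± 28.8 CPM for ATP5G2, lower than in Early_S by 0.37 ± 0.07 and 0.24 ± 0.06 on the log2 scale. In G2 they were 548 ± 45.2 and 902 ± 7.23 CPM. Both remained above G1, with log2 changes in G1 against G2 of -0.34 ± 0.07 for ATP5G1 and -0.32 ± 0.06 for ATP5G2 (edgeR adjusted p = 0.000297 and 4.42e-05).

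ATP5O took another course. It encodes the stalk subunit also called OSCP and had 446.8, 365.7 and 430.1 CPM in G1, against 313.0, 313.1 and 317.1 CPM in G2, and was higher in G1 by 0.40 ± 0.08 on the log2 scale (edgeR adjusted p = 0.00023). Its 3 Early_S libraries, at 446.4, 364.3 and 409.5 CPM, spanned the same range as those of G1. ATP5B, the catalytic beta subunit, averaged 636 ± 35.4 CPM in Early_S and 566 ± 10.1 CPM in G1, a rise of 0.18 ± 0.06 (edgeR adjusted p = 0.0381) that lost its call in 6 of 12 fits that left out a library, with an adjusted p of up to 0.206. Of the 18 complex V members, 5 rose in Early_S against G1 and 0 fell, beside 12.5% and 11.8% of all genes. In Late_S against Early_S 3 fell, beside 4.25% of all genes, and all 18 had a negative log2 change. ATP5F1, 1 of the 5, had 42.6% of its reads multimapped, and its call was kept in 3 of 12 such fits. ATP5L2, at 1.65 CPM on average over the 12 alkylated libraries, had too few reads to order its phases.

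**Figure D4:**
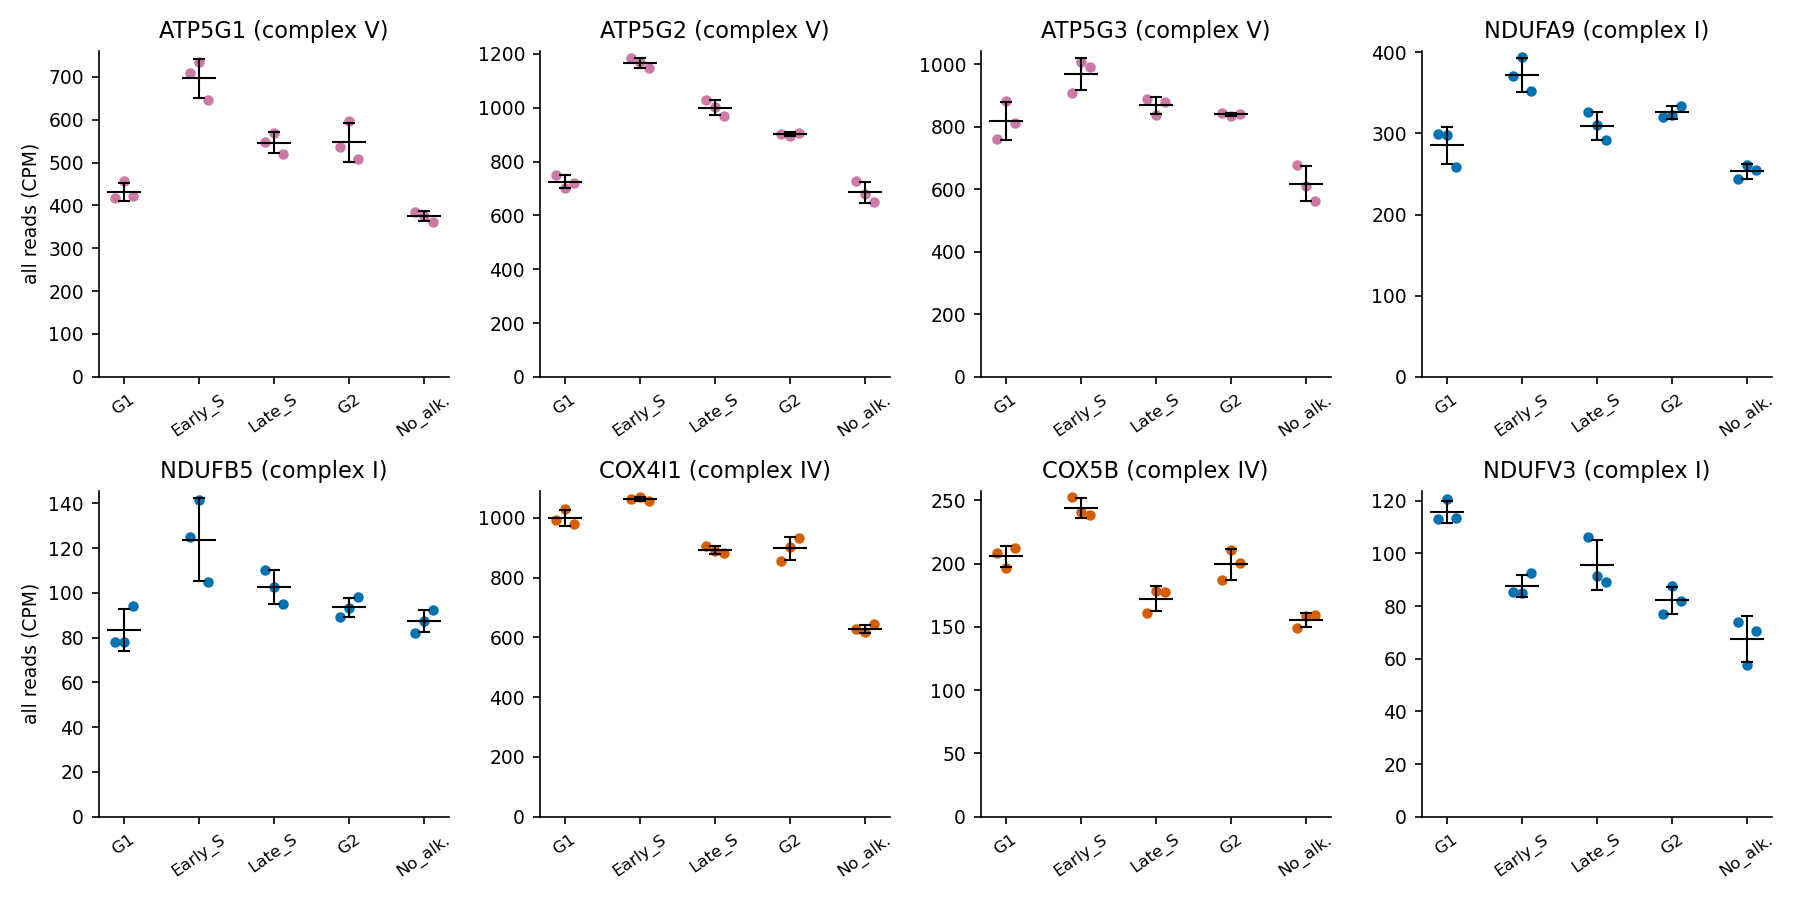
CPM in all reads of 8 members in each library (points, 3 per group), with the mean (long bar) and SD (error bar). ATP5G1, ATP5G2, NDUFA9 and NDUFB5 are highest in Early_S with no overlap with G1, COX5B is lowest in Late_S among the phases, and NDUFV3 is highest in G1.

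Complex I holds 7 core subunits among the members, which carry the flavin and the iron-sulphur centres, and 30 accessory ones. NDUFS7, a core subunit, had 62.6, 36.5 and 50.5 CPM in Early_S, against 46.0, 28.2 and 29.9 CPM in G1. Its libraries overlapped, and its call (0.53 ± 0.18, edgeR adjusted p = 0.023) ended in 4 of 12 fits that left out a library, with an adjusted p of up to 0.253.

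Among the 30 accessory subunits of complex I, 5 rose in Early_S against G1, a share near the 12.5% of all genes that rose, and 1 fell, beside 11.8% of all genes. NDUFB5 had 125.0, 141.7 and 104.8 CPM in Early_S, against 78.1, 78.2 and 94.3 CPM in G1, a rise of 0.58 ± 0.12 (edgeR adjusted p = 0.000212) without overlap. NDUFA9, a subunit at the junction of the membrane and peripheral arms, averaged 372 ± 21.2 CPM in Early_S and 285 ± 23.1 CPM in G1, a rise of 0.39 ± 0.08 (edgeR adjusted p = 0.00017). NDUFB4 averaged 223 ± 22.6 CPM in Early_S and 168 ± 9.27 CPM in G1 and rose by 0.41 ± 0.10. The only member called lower in Early_S than in G1 was NDUFV3, an accessory subunit of the NADH-oxidising module. It was named after its value was seen. NDUFV3 had 85.3, 84.9 and 92.4 CPM in Early_S, against 113.1, 120.7 and 113.4 CPM in G1, a change of -0.39 ± 0.11 (edgeR adjusted p = 0.00714) that kept its call in all 12 fits that left out a library.

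NDUFB9 and NDUFA4 were lowest in G2 among the phases. NDUFB9, the member of complex I with the most reads, had 786.6, 781.1 and 832.5 CPM in G1, against 644.7, 654.1 and 677.7 CPM in G2, and was higher in G1 by 0.28 ± 0.06 (edgeR adjusted p = 0.000601). Its Early_S mean of 787 ± 31.8 CPM lay within the range of G1. NDUFA4, the second most abundant, averaged 515 ± 36.3 CPM in G1 and 413 ± 18.7 CPM in G2, a difference of 0.32 ± 0.07 (edgeR adjusted p = 0.000803). In Late_S against Early_S, 8 of the 37 complex I members fell and 0 rose, beside 4.25% and 6.99% of all genes. Of the 37, 34 had a negative log2 change, where the median of all genes was -0.04.

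In complex IV, 9 of the 11 members tested differed across phases, beside 34.1% of all genes. In Early_S against G1 5 rose and 0 fell, beside 12.5% and 11.8% of all genes, and in Late_S against Early_S 6 fell and 0 rose, beside 4.25% and 6.99%. COX4I1, the abundant form of a regulatory subunit and the member with the most reads, had 907.0, 887.1 and 880.6 CPM in Late_S, against 1062, 1068 and 1055 CPM in Early_S. It fell by 0.27 ± 0.06 on the log2 scale (SE; edgeR adjusted p = 0.00102), with no overlap. COX5B, a subunit on the matrix side that binds zinc, had 160.9, 178.0 and 177.7 CPM in Late_S, against 252.4, 241.1 and 238.1 CPM in Early_S. Its fall of 0.52 ± 0.09 (edgeR adjusted p = 2.98e-05) was the largest of any member in that comparison. It averaged 206 ± 8.47 CPM in G1 and 199 ± 11.9 CPM in G2.

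COX8A rose in Early_S against G1, at 857 ± 75.0 CPM against 692 ± 38.4 CPM (0.32 ± 0.07, edgeR adjusted p = 0.000352). COX7B, a small supernumerary subunit, was higher in G1 than in G2, at 376 ± 27.9 CPM against 283 ± 34.8 CPM (0.41 ± 0.08, edgeR adjusted p = 0.000249). COX6A1 fell to 345 ± 6.69 CPM in Late_S, against 424 ± 7.01 CPM in Early_S, although 49.0% of its reads were multimapped. Complex IV has tissue isoforms, and the forms known from muscle, lung or testis were nearly or wholly without reads. COX6A2, COX7A1 and COX7B2 had 0 reads in the 12 alkylated libraries, which allows at most 0.0133 CPM each (3 counts over 226232373 reads, counting error only). COX8C had 1 read, COX4I2 had 8 and COX6B2 had 48. Their partners COX4I1, COX6A1, COX6B1, COX7A2, COX7B and COX8A averaged 963, 389, 316, 275, 343 and 778 CPM over the same libraries. COX7A2L, a relative of COX7A2 that joins complexes III and IV, averaged 265 CPM, and COX7C averaged 225 CPM.

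Of the 9 complex III members, 3 rose in Early_S against G1, beside 12.5% of all genes, 2 fell in Late_S against Early_S, beside 4.25%, and 2 were higher in G1 than in G2, beside 10%. UQCRQ, a small subunit and the most abundant, had 712.9, 695.4 and 629.5 CPM in Late_S, against 772.1, 826.9 and 850.6 CPM in Early_S, a fall of 0.28 ± 0.07 (SE; edgeR adjusted p = 0.00477) without overlap. That call ended without the Late_S replicate 3, at an adjusted p of 0.0695. UQCRB averaged 451 ± 16.1 CPM in G1 and 386 ± 9.25 CPM in G2, a difference of 0.22 ± 0.07 (edgeR adjusted p = 0.0142), and 25.6% of its reads were multimapped. UQCRFS1, the Rieske iron-sulphur protein, had means of 261, 249, 271 and 266 CPM for G1, Early_S, Late_S and G2 and an edgeR adjusted p of 0.721 across phases, and 58.5% of its reads were multimapped. UQCRH, the hinge protein, averaged 386 CPM and its near copy UQCRHL 23.5 CPM, and reads of the pair may be split between them.

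Complex II is the only complex made wholly from nuclear genes and also an enzyme of the tricarboxylic acid cycle. It had 1 of 4 members called across phases, beside 34.1% of all genes, and 4 genes are too few to tell these shares apart. None of its 4 members passed edgeR's test in a comparison of neighbouring phases. An unadjusted p under 0.05 was reached by 1 in Early_S against G1 and 1 in G2 against Late_S, beside 4728 and 1315 of 13755 genes. SDHA, the flavoprotein, had 79.0, 83.0 and 73.5 CPM in Early_S, against 72.6, 67.2 and 62.6 CPM in G1. SDHA was called across phases (edgeR adjusted p = 0.0373) in 5 of 12 fits that left out a library, and 50.5% of its reads were multimapped. SDHB, the iron-sulphur subunit, had means of 65.9, 65.1, 64.6 and 59.0 CPM in G1, Early_S, Late_S and G2. The membrane anchors SDHC and SDHD averaged 182 ± 6.11 and 112 ± 25.4 CPM in Early_S and 160 ± 11.9 and 102 ± 5.51 CPM in G1, with log2 changes of 0.20 ± 0.09 and 0.14 ± 0.12 (edgeR adjusted p = 0.112 and 0.453). Of their reads, 31.2% and 30.8% were multimapped.

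T>C reads ask which genes took more or less of the RNA made in the pulse. In T>C reads, 2 of 79 members differed across phases, UQCR11 and NDUFA11, beside 10.4% of the 11474 genes tested. UQCR11 was the only member called in Early_S against G1, where it rose, beside 5.17% of genes called and 3.69% higher, and NDUFA8, an accessory subunit of complex I, the only member called in Late_S against Early_S, where it fell, beside 3.53% of genes called (1.72% higher and 1.81% lower). The call on UQCR11 was kept in 10 and that on NDUFA8 in 4 of 12 fits that left out a library. In G2 against Late_S edgeR's test called 0 members, beside 0.0523% of genes, and DESeq2 called 1. At an unadjusted p under 0.05 in edgeR's test there were 5 of 79 members, beside 1157 of 11474 genes. In G1 against G2, UQCR11 and ATP5G1 were lower in G1 and 0 members higher, beside 4.39% and 2.9% of genes and 7.29% in all. The median log2 changes were 0.09, -0.03, 0.05 and -0.08 in these 4 comparisons. These values set each gene against the bulk of T>C reads, and with T>C reads scaled by all reads instead 55 members were lower in Late_S than in Early_S and 62 were higher in G1 than in G2.

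NDUFA11, an accessory subunit of complex I, had 120, 105 and 91.9 CPM of T>C reads in G1, 121, 121 and 101 CPM in Early_S, 70.0, 73.9 and 39.5 CPM in Late_S, and 167, 112 and 132 CPM in G2. No Late_S library reached the lowest of the other phases, and the F-test across phases gave an edgeR adjusted p of 0.0239, or up to 0.137 when a library was left out. ATP5G1 had 153, 182 and 141 CPM of T>C reads in G1, against 292, 229 and 236 CPM in G2 (log2 change -0.67 ± 0.20, edgeR adjusted p = 0.0398, or up to 0.183 with a library left out). In Early_S against G1, where ATP5G1 and ATP5G2 rose in all reads, their T>C reads averaged 183 ± 26.6 against 159 ± 21.2 CPM and 362 ± 40.3 against 318 ± 34.8 CPM, and neither passed the test. UQCR11, a small complex III subunit, had 240, 414 and 315 CPM of T>C reads in Early_S, against 197, 216 and 167 CPM in G1 (0.74 ± 0.18, edgeR adjusted p = 0.0132). In No_alkylation, however, 12.4% ± 2.67 of UQCR11 reads were T>C reads (SD, n = 3), the highest background of any tested member, and its part in the UQCR11 result was not tested.

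The labelled share is the percent of a gene's reads that are T>C reads. It was read for the 77 members with at least 100 reads in every alkylated library. Their median labelled share was 11.8% ± 0.0573 for G1, 8.81% ± 0.415 for Early_S, 5.09% ± 0.463 for Late_S, 5.602% ± 0.1002 for G2 and 0.572% ± 0.0580 for No_alkylation (SD of library medians, n = 3 each). Over all 8379 genes with as many reads, the medians were 25.6%, 19.6%, 9.50%, 9.35% and 0.399%. In G1, 74 of the 77 members lay below the all-gene median, in Early_S 73, in Late_S 73 and in G2 65. Counted per covered T position, the median conversion rates of the members were 1.42%, 1.20%, 0.720% and 0.759% in G1, Early_S, Late_S and G2, beside 2.66%, 2.32%, 1.17% and 1.11% for all genes. The members' reads covered fewer T positions, at a median of 16.2 per read beside 19.2 for all genes.

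The low share was not common to all mitochondrial genes. In G1 the 71 genes of mitochondrial ribosomal proteins had a median share of 24.4% ± 1.22, the 83 of cytosolic ribosomal proteins 9.05% ± 0.355, the 15 of glycolysis 11.3% ± 0.627 and the 14 of the tricarboxylic acid cycle 16.1% ± 0.692. Assembly factors of complex IV, which build the enzyme without staying in it, had 34.7% ± 2.72 over 21 genes, against 11% ± 1.62 for the 11 subunits of complex IV. Assembly factors of complex I had 20.2% ± 1.99 over 16 genes, against 12.8% ± 0.327 for its 36 subunits. In G2 the medians of assembly factors and subunits were 12.5% and 5.11% for complex IV but 5.69% and 5.61% for complex I. By complex the subunit medians in G1 were 12.8% for complex I, 16.98% for II, 12.03% for III, 11% for IV and 10.3% for V. Across members the shares of different phases had a Spearman's rho of 0.90 between G1 and Early_S, 0.84 between G1 and Late_S and 0.88 between Late_S and G2 over 77 genes, which share libraries and are not independent. The share had a rho of -0.04 with the number of reads and of 0.36 with T positions per read.

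**Figure D5:**
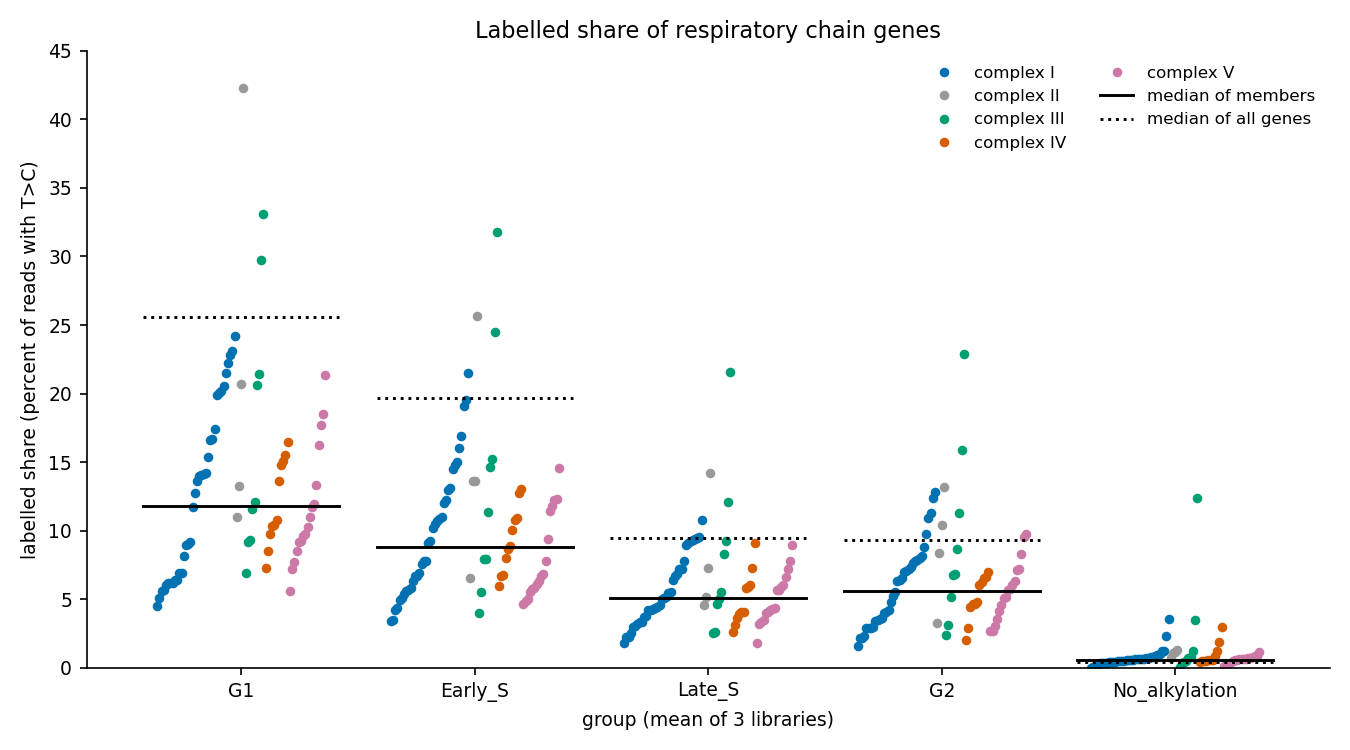
Labelled share of each of 77 members (points, mean of 3 libraries, coloured by complex and sorted within it) in each group, with the median of the members (solid line) and of all genes with as many reads (dotted line). The members' median is 11.8% in G1 against 25.6% for all genes, and SDHD stands highest in G1 at 42.3%.

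Averaged over the 4 phases, UQCR11 had 26.5% labelled reads, SDHD 23.8% and UQCRFS1 21.4%, and NDUFA3 and NDUFB8 had the lowest means. In No_alkylation UQCR11, SDHD and UQCRFS1 had 12.4%, 1.12% and 0.434%, so the first place of UQCR11 rested on its background, and net of it UQCR11 lay below SDHD and UQCRFS1. SDHD had 41.2%, 47.6% and 38.1% labelled reads in the G1 libraries, 30.4%, 20.8% and 25.7% in those of Early_S, 9.63%, 17.9% and 15.1% in those of Late_S, and 12.3%, 12.7% and 14.6% in those of G2. All 3 libraries of G1 lay above those of the other phases. The other complex II subunits were well below it in G1, at 20.7% ± 2.23 for SDHA, 13.2% ± 1.93 for SDHB and 10.96% ± 0.995 for SDHC. UQCR11 had 29.7% ± 3.11 in G1 and 31.8% ± 5.62 in Early_S, on its background of 12.4%. UQCRFS1 followed with 33.1% ± 2.44 in G1 and a background of 0.434%. Of the reads of SDHD and UQCRFS1, 30.8% and 58.5% were multimapped, and the part of these reads in the shares was not tested. NDUFB8 had 5.66% ± 0.893 in G1 and 1.60% ± 0.894 in G2, and NDUFA3 5.06% ± 4.19 and 2.15% ± 1.89.

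All but 1 of the 79 tested members had a labelled share above No_alkylation, beside 84.4% of the 12909 genes tested. The exception was UQCRHL (log2 change 2.09 ± 1.06, edgeR adjusted p = 0.0658). In No_alkylation 16 of the 79 had a share over 1%, 6 over 2% and 1 over 5%, around a median of 0.618%.

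Across phases, 18 of 79 members (22.8%) differed in labelled share once the overall labelling of each library was removed, beside 14.7% of the 11470 genes tested. On this scale, which asks whether the ratio of T>C to other reads moved more or less than in the bulk of genes, 6 members rose in Late_S against Early_S and 0 fell, beside 2.28% and 5.87% of genes and 8.14% in all. The median log2 change was 0.40 for members and -0.10 for all genes. With overall labelling kept the direction turned, and 54 members were lower in Late_S and 0 higher. Most genes moved this way. Among those with at least 100 reads, the share itself was lower in Late_S for 77 of 77 members and 7976 of 8377 genes. In G1 against G2, 1 member was higher relative to the bulk and 12 lower, beside 4.4% and 4.33% of genes and 8.74% in all, with medians of -0.34 and 0.18. With labelling kept 68 were higher in G1, and the share itself was higher in G1 for 77 of 77 members and 8228 of 8374 genes. The 13 calls fell to 6 without the G1 replicate 1, 6 without the G1 replicate 3 and 7 without the G2 replicate 1, and in each of these fits 0 members were higher. In Early_S against G1, ATP5G2 was the only member called, and it fell, beside 5.34% of genes called and 1.07% lower. In G2 against Late_S, 0 members were called by edgeR, beside 0.0436% of genes, and 13 of 79 had an unadjusted p under 0.05, beside 954 of 11470 genes.

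UQCRQ gave an example of this scaling. Its labelled share was 8.41%, 8.48% and 7.98% in Late_S, against 11.7%, 11.9% and 10.4% in Early_S, lower in every library. The median share of all genes was 9.50% in Late_S against 19.6% in Early_S, and relative to this bulk UQCRQ rose by 0.65 ± 0.13 on the log2 scale (edgeR adjusted p = 0.00188), or changed by -0.50 with labelling kept. ATP5G2 had 9.72%, 11.1% and 9.96% in G1, 5.53%, 6.20% and 5.57% in Early_S, and 4.40%, 4.26% and 4.50% in Late_S, with no overlap among these phases. Relative to the bulk it fell in Early_S against G1 by 0.51 ± 0.14 (edgeR adjusted p = 0.0373), a call lost in 5 of 12 fits that left out a library, and it rose in Late_S against Early_S by 0.74 ± 0.14 (adjusted p = 0.00132), turning to -0.41 with labelling kept. ATP5G1 averaged 8.55% ± 0.338 for G1, 4.89% ± 0.495 for Early_S, 4.08% ± 1.13 for Late_S and 4.60% ± 0.936 for G2. COX4I1 had 8.52% ± 0.598 in G1 and 4.66% ± 0.484 in G2, a change of -0.64 ± 0.15 relative to the bulk (edgeR adjusted p = 0.00486) and of 0.93 with labelling kept. NDUFB5 was the only member called higher in G1 than in G2 on the relative scale. It had 17.5%, 14.6% and 20.2% in G1, against 2.52%, 4.78% and 1.31% in G2. Its change of 1.39 ± 0.40 (edgeR adjusted p = 0.0293) lost its call in 5 of 12 fits that left out a library.

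In No_alkylation against the mean of the 4 phases, 41 of 80 members were lower in all reads and 2 higher, beside 21% and 22.5% of the 13972 genes tested. The 2 that were higher were COX6C, at 122 ± 5.51 CPM against 72.7 to 86.4 CPM in the phase means, and ATP5E, at 631 ± 33.8 CPM against 450 to 510 CPM in the phase means. What differs between these libraries besides the chemical step, cell makeup included, is not given, so the step and the cells cannot be told apart. In bulk RNA of this kind fewer cells of a stage and less RNA per cell cannot be told apart either.

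Genes around the chain were counted from lists chosen with earlier results of these data known. Of the carriers and partners, 4 of 11 rose in Early_S against G1 and 0 fell, where 12.5% of all genes rose and 11.8% fell. Among them was CYC1, the cytochrome c1 of complex III whose name the rule does not match, at 690 ± 60.4 CPM in Early_S and 504 ± 24.4 CPM in G1 (0.46 ± 0.07, edgeR adjusted p = 4.07e-06). SLC25A6, an ADP/ATP carrier, averaged 228 ± 8.63 CPM in Early_S and 162 ± 13.1 CPM in G1. Of 14 genes of the tricarboxylic acid cycle 6 rose and 0 fell, and of 16 of glycolysis 10 rose and 1 fell. ENO1, a glycolytic enzyme, averaged 4533 ± 80.2 CPM in Early_S and 3440 ± 114 CPM in G1. Of 84 cytosolic ribosomal protein genes tested 28 rose and 2 fell, and of 72 mitochondrial ones 13 rose and 8 fell, which is near the shares of all genes.

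Of 13 regulators of respiratory genes tested, 5 fell in Early_S against G1 and 0 rose, beside 11.8% and 12.5% of all genes. TFAM, which packages mitochondrial DNA and starts its transcription, averaged 79.5 ± 8.92 CPM in Early_S and 128 ± 13.3 CPM in G1, a fall of 0.68 ± 0.11 (edgeR adjusted p = 4.73e-06). TFB2M, a mitochondrial transcription factor, averaged 9.75 ± 0.962 CPM in Early_S and 28.4 ± 6.62 CPM in G1, and POLRMT, the mitochondrial RNA polymerase, 14.6 ± 0.579 and 32.5 ± 3.47 CPM. Of 16 assembly factors of complex I 4 rose and 3 fell, and of 22 of complex IV 4 rose and 4 fell, and the counts for complex IV were near those shares. COX15, an enzyme of heme a synthesis, averaged 66.8 ± 7.62 CPM in Early_S and 42.0 ± 3.63 CPM in G1. LRPPRC, which binds mitochondrial messenger RNA, averaged 87.0 ± 8.70 CPM in Early_S and 124 ± 17 CPM in G1. In T>C reads the lists of regulators, complex I assembly factors and tricarboxylic acid cycle genes each had 0 members called by edgeR in Early_S against G1, where 5.17% of all genes were called. At an unadjusted p under 0.05 in that test these lists had 4, 4 and 1 members, beside 1692 of 11474 genes.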

How the data were processed

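Reads of 15 SLAM-seq libraries were counted by the authors with slamdunk v0.2.4, per the file headers, on hg38, per the submitters' processing notes. Each deposited table held raw read counts and T>C read counts for 68625 transcript end regions, and aligner settings are not given in the sources read. Counts were summed over regions of 1 name, and 481 names that join several genes were kept as they stand.

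Groups followed the labels. TMM scaling, filterByExpr (minimum count 10, total 15) and quasi-likelihood tests were run in edgeR 4.0.16 (R 4.3.3) on 12 alkylated libraries over all genes, with Benjamini-Hochberg adjustment and a threshold of 0.05, and SE was the log2 change divided by the root of F. Calls and adjusted p-values named after edgeR come from these fits, except comparisons with No_alkylation, which used all 15 libraries. CPM of all reads was scaled with the TMM factors of the 15 libraries. The labelled share was tested as T>C against other reads with library as a term. Comparisons of phases used separate TMM factors for the 2 kinds. Against No_alkylation no TMM factors were used, and genes needed a mean of 10 reads and 10 T>C reads in all. Without molecular identifiers, reads are not independent molecules, and floors cover counting error only. Fits were tested on simulated data. DESeq2 1.42.0, other scalings, no filter, a replicate block and leaving out each library were the alternatives.

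The members, gene lists and tests were chosen with earlier results of these data known. The text names, for each complex, the 2 members with the most reads, up to 4 called members with the smallest p across phases in each kind of value and up to 2 more in each contrast, the 2 highest and 2 lowest labelled shares, all SDH members, members with tissue isoforms, and those with over 20% multimapped reads. For other lists up to 3 called genes are named, and members outside this rule were chosen after their values were seen. Promoters came from RefSeq (GRCh38.p14). Results on 1 member are not reported here.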

Additional observations from a re-analysis of the deposited data

How the results depend on the processing

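In all reads the 20 and 1 calls of Early_S against G1 came to 12 to 22 in all over 12 fits that each left out a library, and the 19 of Late_S against Early_S to 5 to 19. In T>C reads, scaling by all reads gave 65 calls across phases, 3 in Early_S against G1, 55 in Late_S against Early_S and 62 in G1 against G2. DESeq2 gave 5 across phases, 2 in Late_S against Early_S, 1 in G2 against Late_S and 4 in G1 against G2, and no filter on low counts gave 2 in Late_S against Early_S and 1 in G2 against Late_S. Leaving out a library gave 1 to 3 across phases, 0 to 1 in Early_S against G1, 0 to 2 in Late_S against Early_S and 1 to 3 in G1 against G2. For the labelled share, keeping overall labelling gave 70 calls across phases, 14 in Early_S against G1, 54 in Late_S against Early_S and 68 in G1 against G2. No filter gave 3 in Early_S against G1 and 1 in G2 against Late_S, and leaving out a library 0 to 2 in Early_S against G1, 0 to 1 in G2 against Late_S and 6 to 14 in G1 against G2. With multimapped reads taken out, the members held 2.08% of reads over the 4 phases, complex I 0.674%, complex II 0.0324% and complex V 0.678%. Conversion rates per covered T position, a different measure from the share, had medians of 1.42%, 1.20%, 0.720% and 0.759% in G1, Early_S, Late_S and G2. Minus the No_alkylation share, an alternative chosen after seeing the data, the median labelled shares of these phases were 10.8%, 8.06%, 4.37% and 4.87%. With members of at least 20 reads the G1 median of the labelled share was 11.9%.

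Changes that turned their sign did so by scaling alone. In T>C reads of G1 against G2, scaling by all reads gave log2 changes of 0.56 for ATP5G1 and 0.35 for UQCR11. With overall labelling kept, the labelled share of G1 against G2 had log2 changes of 1.10 for ATP5B, 0.95 for ATP5E, 0.61 for ATP5EP2, 0.96 for ATP5G3, 0.93 for COX4I1, 0.80 for COX7B, 0.53 for NDUFA2, 0.85 for NDUFS5, 0.65 for NDUFS8, 0.52 for UQCR11, 0.49 for UQCRB and 0.91 for UQCRQ. That of Late_S against Early_S had -0.54 for ATP5E, -0.31 for ATP5G1, -0.41 for ATP5G2, -0.18 for NDUFA2, -0.37 for NDUFA9 and -0.50 for UQCRQ. Of the values of single called members under the alternatives, 2741 kept direction and call, 336 lost the call and 20 turned.

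Of 18 pairs of libraries with the same replicate number, 0 had a correlation over 0.1 (-0.017 to 0.031), and 0 of 36 pairs with different numbers had one. The medians were 0.0083 and -0.0029, and 9 of 12 libraries correlated best with their own number. Since no pair of either kind reached the threshold, it cannot decide whether the numbers pair the libraries. With the replicate block, 48 members were called in all reads across phases, 23 in Early_S against G1, 25 in Late_S against Early_S, 0 in G2 against Late_S and 23 in G1 against G2, and 2 in T>C reads of Late_S against Early_S. For the labelled share, a replicate block without the library term gave 20, 1, 8, 1 and 17. The cause of these differences was not tested beyond what each setting itself changes. Members with few T>C reads in Late_S and G2 had wide errors, so a missing call there does not show that a share stayed the same.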
